A study of Mus musculus with 33 samples.

Results

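P19 cells that had followed the dimethyl sulfoxide (DMSO) route for 6 days were compared with the undifferentiated cells they came from. The comparison sets the net RNA change of the whole mesoderm route, including genes that moved at day 3 and came back and RNA of pluripotency genes that was still there at day 6. It rests on the 3 libraries labelled D6DMSO and the 3 labelled D0, which are 6 of the 33 samples of the series, and on all 14706 genes of the deposited table outside the mitochondrial genome. P19 is an established mouse embryonal carcinoma line, obtained from a cell bank. D0 is the growing line without treatment. D6DMSO cells were treated with 1% DMSO, spent 2 days as embryoid bodies (floating cell clumps) in bacteriological dishes, were then moved to culture flasks with maintenance medium, and were collected on day 6. All cells were grown in medium with charcoal-stripped serum, which has lost most of its hormones and retinoids. The 3 libraries labelled D3DMSO, from the same route at day 3, are used to show where a gene had been on the way, and the limma fit also holds the 6 libraries of the retinoic acid route, for its estimate of spread. The series' text speaks of biological replicates without naming cultures or passages. The p-values below therefore measure spread between libraries, which may be technical. The fit has 1 estimate of spread per gene over all 15 RNA libraries. A standard error below can therefore differ from the spread of the 6 compared libraries alone.

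Embryonal carcinoma cells resemble the early epiblast. They hold high levels of the transcription factors Pou5f1 (Oct4), Nanog and Sox2, which keep the pluripotent state. In the embryo, epiblast cells that become mesoderm pass through the primitive streak, where the T-box factor T (brachyury) is made, and then switch T off as lateral, cardiac and other mesoderm regulators come on. DMSO-treated aggregates of P19 cells are a long-used model of this route and of early cardiac and smooth muscle. A bulk library averages over all cells, so fewer cells of a type and less RNA per cell cannot be told apart in any result here.

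The D0 libraries held 7.13 to 9.88 M counts and the D6DMSO libraries 39.0 to 44.5 M. In D6DMSO, 49.8 to 55.8% of the counts came from the 11 mitochondrial genes, which hold no counts in the D0 libraries. Without these genes the D6DMSO libraries held 19.6 to 19.9 M counts. A set of 4 genes that collect ribosomal RNA reads, Lars2 among them, took up from 8.86 to 23.2% of what remained in D0, with the highest share in replicate 2, and from 0.572 to 1.27% in D6DMSO. The D3DMSO libraries held 5.86 to 6.87 M counts, 0% of them mitochondrial, with 3.09, 32.8 and 24.0% in the same 4 genes. Day and these differences between the libraries cannot be told apart, which holds for D3DMSO against D6DMSO too. Levels below are counts per M counts of the library (CPM), scaled as in the deposited table. Spearman's rho over genes was 0.994 to 0.995 within D0, 0.995 to 0.996 within D6DMSO and 0.881 to 0.894 between the groups.

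Differences are D6DMSO minus D0 on the log2 scale with their standard error (SE), from limma across all genes, and a gene was called, or said to have risen or fallen, where its Benjamini-Hochberg adjusted p was under 0.05. Of the 14706 genes, 10566 were called (71.8%), 5502 higher in D6DMSO (37.4%) and 5064 lower (34.4%). At least 2-fold, 2849 rose (19.4%) and 1990 fell (13.5%), and the 6 libraries did not overlap for 78.7% of genes (40.9% higher, 37.8% lower in D6DMSO). With so many genes moving, the counts of the gene lists below have to be read against these shares, and a list near them shows nothing particular. List members absent from the deposited table are not counted, and their levels are not known here. The median difference over all genes was 0.04. It was -0.06 under quantile normalization, which also turned the share of called genes that were higher from 52.1% to 47.0%, and that of called genes with at least a 2-fold change from 58.9% to 49.5%.

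**Figure D1:**
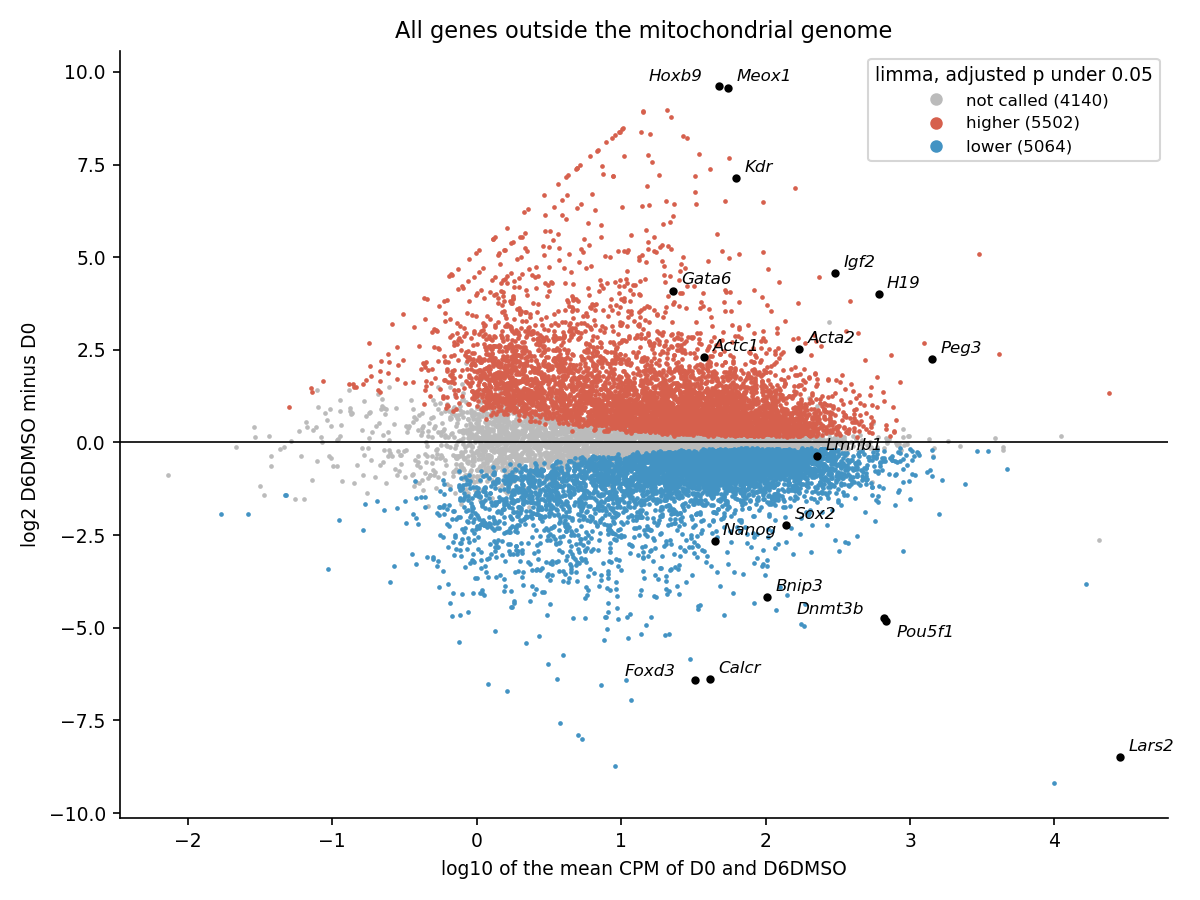
Log2 difference D6DMSO minus D0 (y axis) against the log10 of the mean CPM of the 2 groups (x axis), 1 point per gene outside the mitochondrial genome; red and blue points were called higher (5502) and lower (5064) by limma, grey points were not called (4140), and black points carry their names. The Hox gene Hoxb9 and the mesoderm regulator Meox1 stand at the top, and Pou5f1, Dnmt3b, Foxd3 and Calcr among the lowest points; 1 gene without counts in both groups has no place on the x axis and was left out of the drawing.

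The labels were checked against cell type markers. The 6 measured markers of undifferentiated P19 cells all fell, and their summed level went from between 2096 and 2440.0 CPM in D0 to between 125 and 143 CPM in D6DMSO. Of 6 cardiac muscle markers listed, the 4 measured all rose (summed 7.18 to 8.51 CPM in D0, 67.4 to 99.8 CPM in D6DMSO). So did 4 of 4 endothelial markers (1.23 to 1.73 and 18.4 to 26.4 CPM) and 2 of 3 smooth muscle markers measured (55.7 to 74.4 and 171.7 to 202 CPM). All 4 neuron markers fell (289 to 323 and 22.8 to 27.5 CPM). Markers of other cell types also rose, from low levels: the 2 measured of neural progenitors (1.42 to 2.56 and 6.47 to 8.51 CPM), the 1 of skeletal muscle (1.10 to 2.56 and 11.3 to 12.2 CPM) and the 1 of endoderm, Sox17 (0.308 to 0.567 and 3.02 to 3.64 CPM). Of 3 epithelium markers 1 rose and 2 fell (237 to 266 and 86.5 to 109 CPM), and none of the 4 blood markers listed was measured. The part of these cell types in the results below was not tested. No measured marker was at 0 in either group.

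The 4 genes that mark the comparison in earlier work on these data, H19, Actc1, Gata6 and Acta2, were all higher at day 6. H19, a maternally expressed imprinted long non-coding RNA of fetal mesoderm and endoderm, was at 77.03, 68.7 and 66.6 CPM in the 3 D0 libraries and at 1199, 1248 and 974 CPM in the 3 D6DMSO libraries. Actc1, the cardiac actin of the sarcomere, was at 16.9, 9.91 and 11.7 CPM and then at 61.6, 69.3 and 56.8 CPM. Gata6, a zinc finger factor of cardiac mesoderm and primitive endoderm, went from 3.38, 1.89 and 2.36 CPM to 42.97, 47.2 and 39.95 CPM. For these genes the lowest D6DMSO library lay above the highest D0 library. Acta2, the actin of smooth muscle, had 64.7, 39.2 and 50.1 CPM in D0 and 276, 322 and 274 CPM in D6DMSO, again without overlap. The log2 differences were 4.003 ± 0.18 (SE) for H19, 2.31 ± 0.22 (SE) for Actc1, 4.09 ± 0.36 (SE) for Gata6 and 2.53 ± 0.17 (SE) for Acta2, with limma adjusted p of 7.99e-12, 6.37e-08, 3.14e-08 and 1.26e-09. The actin genes are near-identical in their coding parts, so counts of Actc1 and Acta2 may hold reads of each other or of other actins.

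**Figure D2:**
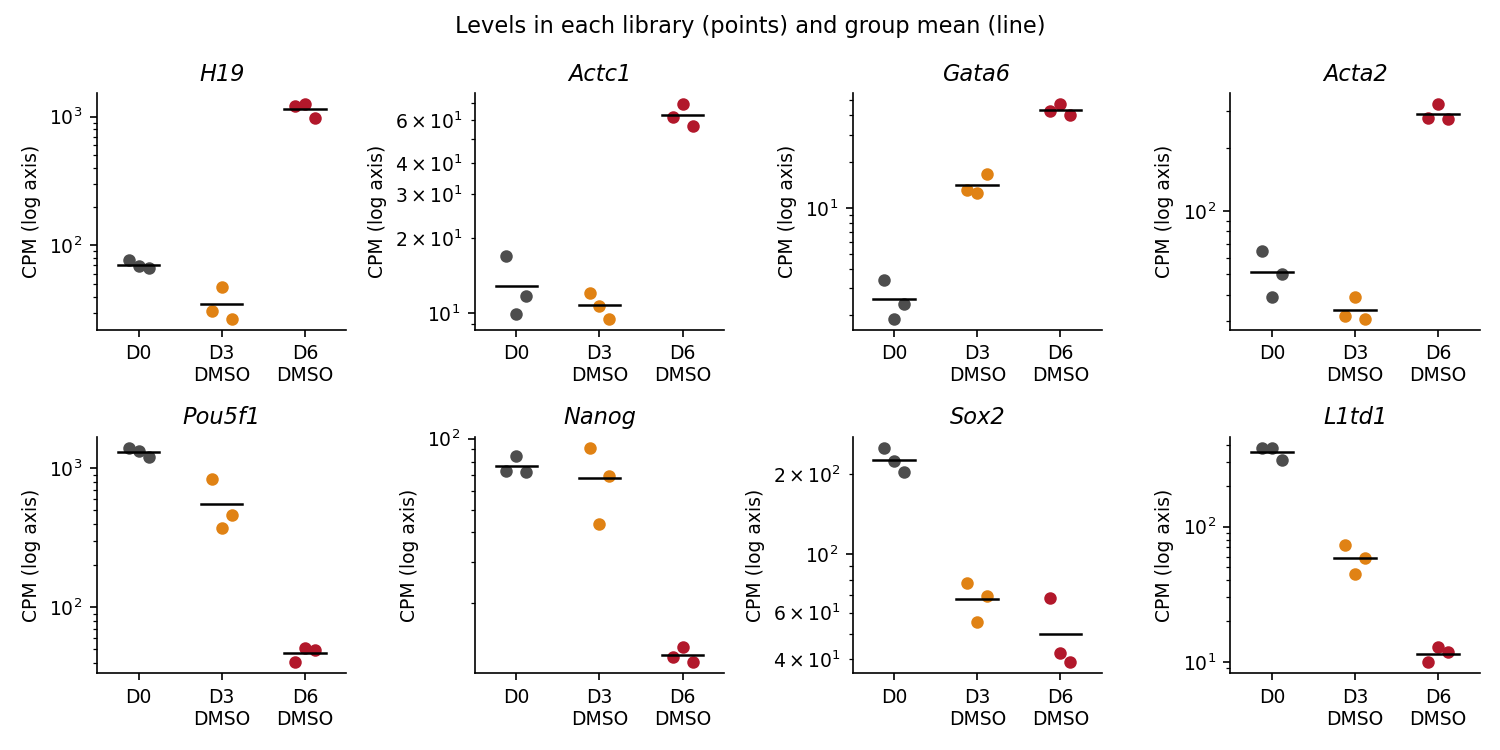
CPM on log axes in each library (points) and group mean (lines) at D0, D3DMSO and D6DMSO for 4 genes that rose (top row) and 4 pluripotency genes that fell (bottom row). H19, Actc1 and Acta2 were at or below the D0 level at day 3 and above it in all 3 D6DMSO libraries, Gata6 was already higher at day 3, and 1 D6DMSO library of Sox2 (68.3 CPM) lies within the range of the D3DMSO libraries.

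By the day 3 values, 3 of these 4 rises came late, between D3DMSO and D6DMSO. Depth and the ribosomal and mitochondrial shares changed at the same step, and their part was not tested. H19 was at 30.9, 47.4 and 26.8 CPM in the D3DMSO libraries and Acta2 at 31.6, 39.2 and 30.7 CPM, both lower than in D0 (log2 -1.05 and -0.58, limma adjusted p 8.62e-05 and 0.00844). Actc1, at 12.01, 10.7 and 9.45 CPM, was not called between D0 and D3DMSO, with a log2 difference of -0.23. Gata6 had reached 12.98, 12.5 and 16.6 CPM by day 3 (log2 2.47 over D0) and rose again to day 6. The day 3 comparisons share their D0 or D6DMSO libraries with the day 6 comparison, so the values stand side by side and are not independent of each other. Over all genes 28.3% were called higher and 27.9% lower in D3DMSO than in D0, and 28.3% higher and 28.1% lower in D6DMSO than in D3DMSO.

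Most measured regulators of cardiac and lateral mesoderm rose. Of 36 listed, 24 were measured. Of these 24, 21 were called higher in D6DMSO (against 37.4% of all genes) and 2 lower, and the median log2 difference of the 24 was 4.05 (0.04 over all genes). In D0, 9 of the 24 were under 1 CPM, where a fall could hardly be called, against 1322 of all 14706 genes. The share that rose has to be read with this limit. Meox1, a homeobox factor of somite and cardiac-field mesoderm, had 3 counts in D0 over the group and was at 117, 84.96 and 126 CPM in D6DMSO. The ratio of its scaled counts to D0 was 971 (95% interval 332 to 4711), where the interval covers counting error only. Osr1, a zinc finger factor of intermediate and lateral mesoderm, was at 0, 0.157 and 0.378 CPM in D0 and 32.98, 31.7 and 33.3 CPM in D6DMSO, a log2 difference of 7.56 ± 0.83 (SE) that became 6.69 without D0 replicate 1 and 8.21 without D0 replicate 3. Foxc2, a forkhead factor of paraxial and vascular mesoderm, had 1 count in D0 and was at 17.1, 11.3 and 15.6 CPM in D6DMSO. Each of these 3 genes was close to silent in every D0 library and present in every D6DMSO library.

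Gata4, a cardiac and endodermal partner of Gata6, was at 2.15, 1.42 and 2.17 CPM in D0 and 16.6, 23.4 and 15.01 CPM in D6DMSO (log2 3.21 ± 0.54 (SE), limma adjusted p 5.57e-05). Among list members chosen after their values were seen, the helix-loop-helix factor Twist1 went from 0.718, 0.786 and 1.04 CPM to 38.5, 32.8 and 26.8 CPM (log2 5.17 ± 0.31 (SE)), and Tbx20, a T-box factor of the heart, from 1.13, 0.472 and 1.89 CPM to 8.46, 9.16 and 5.86 CPM (log2 2.84 ± 0.54 (SE)). Both sets of libraries were apart. Tcf15, a somite factor, fell. It stood at 2.26, 2.36 and 1.51 CPM in D0 and 1.01, 0.714 and 0.788 CPM in D6DMSO, and its limma adjusted p of 0.0193 rose above 0.05 without D0 replicate 1, D0 replicate 2 or D6DMSO replicate 2 (range over the alternatives 0.00172 to 0.0621). Tbx1 was not called in the fit of all libraries (log2 -1.86 ± 0.90 (SE)) but was called lower with the 6 libraries alone (limma adjusted p 0.000211), under quantile normalization, with voom weights and with thinning. At day 3 the median difference of the list from D0 was 0.70, and 17 of the 24 were called higher in D6DMSO than in D3DMSO (28.3% of all genes were).

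The contractile machinery of the heart followed the same direction. Of 25 genes listed for the cardiac sarcomere and calcium handling, 14 were measured. Of these 14, 13 rose, 0 fell, and Atp2a2, the calcium pump of the sarcoplasmic reticulum and also of other cells, was not called. Their median log2 difference was 2.79, against -0.18 for D3DMSO minus D0. In D0, 4 of the 14 were under 1 CPM, where a fall could hardly be called. Ryr2, the calcium release channel of heart muscle, was at 1.44, 1.89 and 2.74 CPM in D0, 1.93, 2.87 and 2.17 CPM in D3DMSO and 49.2, 64.3 and 47.3 CPM in D6DMSO. Tnni1, the slow troponin I of the embryonic heart, was at 1.13, 0.629 and 1.04 CPM in D0 and 22.4, 20.2 and 12.7 CPM in D6DMSO. Ldb3, a Z-disc protein, went from 0.103, 0.472 and 0.284 CPM to 6.71, 7.18 and 4.73 CPM. The log2 differences were 4.72 ± 0.26 (SE) for Ryr2, 4.21 ± 0.53 (SE) for Tnni1 and 4.33 ± 0.61 (SE) for Ldb3 (limma adjusted p 1.09e-10, 2.27e-06 and 7.85e-06). Myh6, a cardiac myosin heavy chain, was at 20.9, 23.01 and 12.7 CPM in D6DMSO and 2.36, 2.52 and 3.21 CPM in D0. Cardiac troponin T, Tnnt2, was at 6.67, 4.33 and 3.98 CPM in D6DMSO and 1.23, 0.315 and 0.567 CPM in D0. Both were named after their values were seen. D6DMSO replicate 3 held the lowest day 6 value of each gene of this paragraph with values given, still above every D0 library.

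Of 16 smooth muscle contractile genes, 12 rose and Vcl fell, with a median log2 difference of 1.32. Itga8, an integrin chain of smooth muscle and mesenchyme, was at 0.923, 1.73 and 0.946 CPM in D0, 13.9, 27.7 and 21.4 CPM in D3DMSO and 11.8, 11.3 and 12.5 CPM in D6DMSO. It was the 1 gene of the list called lower at day 6 than at day 3, while 12 were called higher. Des, the muscle intermediate filament desmin, rose from 4.92, 5.82 and 3.69 CPM to 29.7, 32.5 and 21.9 CPM (log2 2.53 ± 0.48 (SE)). Vcl, vinculin of cell adhesions, fell from 313, 303 and 336 CPM to 143, 170.0 and 175 CPM. Cnn1, Cald1 and Flna were not called (log2 0.17 ± 0.33 (SE), 0.13 ± 0.12 (SE) and 0.09 ± 0.08 (SE)). Tagln, the smooth muscle protein SM22, was at 48.7, 30.8 and 40.6 CPM in D0, 11.5, 6.77 and 8.67 CPM in D3DMSO and 144, 171 and 146 CPM in D6DMSO. It was thus lower at day 3 than at day 0 and higher at day 6 (log2 -2.15 and 1.96 ± 0.19 (SE) to D0, both called). Myocd, the co-activator myocardin from the mesoderm regulator list, was at 1.33, 2.04 and 1.51 CPM, 0.690, 0.616 and 0.775 CPM and 10.5, 14.4 and 11.03 CPM in the same order. Of 4 measured skeletal muscle genes, Des and Acta1 rose and Tnnt1 and Myh3 fell. The call of Myh3 (limma adjusted p 0.0223) was lost with thinning and without D0 replicate 2, D6DMSO replicate 1 or D6DMSO replicate 2 (range 0.00155 to 0.463).

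Serum response factor, with myocardin as its partner, is known to bind the CArG box, and RefSeq promoters (250 bases before the gene's start, build GRCm38.p6) were searched for it on both strands. The box begins with CC, ends with GG and has 6 bases of A or T between. It is in 1.47% of all 32851 promoters of that length, in 1.51% of the 10355 measured genes that have one, in 3 of 12 sarcomere genes (Actc1, Myl7 and Ldb3) and in 3 of 14 smooth muscle genes (Cnn2, Myl9 and Vcl, the last of which fell). Both lists were chosen as muscle genes, so these shares describe the lists and not the change. A match describes letters in this window and says nothing of binding. The promoters of Actc1, minus strand of chr2:114052876-114053125, and of Myl9, plus strand of chr2:156775214-156775463, are shown because Actc1 marks the comparison and Myl9, the smooth muscle myosin light chain, rose from 22.3, 17.9 and 18.9 CPM to 49.3, 45.4 and 40.8 CPM. Capitals mark the box, which begins at base -47 of Actc1 and base -161 of Myl9 from the start.
Actc1: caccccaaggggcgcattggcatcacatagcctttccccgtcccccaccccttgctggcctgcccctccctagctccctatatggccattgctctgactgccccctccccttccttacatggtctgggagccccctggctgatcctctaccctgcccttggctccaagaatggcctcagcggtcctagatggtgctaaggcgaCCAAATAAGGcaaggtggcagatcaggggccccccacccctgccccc
Myl9: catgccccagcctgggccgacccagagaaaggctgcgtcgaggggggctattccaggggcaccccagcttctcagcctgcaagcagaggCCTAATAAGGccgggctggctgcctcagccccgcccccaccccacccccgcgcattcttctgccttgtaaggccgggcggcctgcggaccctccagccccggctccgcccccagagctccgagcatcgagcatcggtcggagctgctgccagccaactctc

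**Figure D3:**
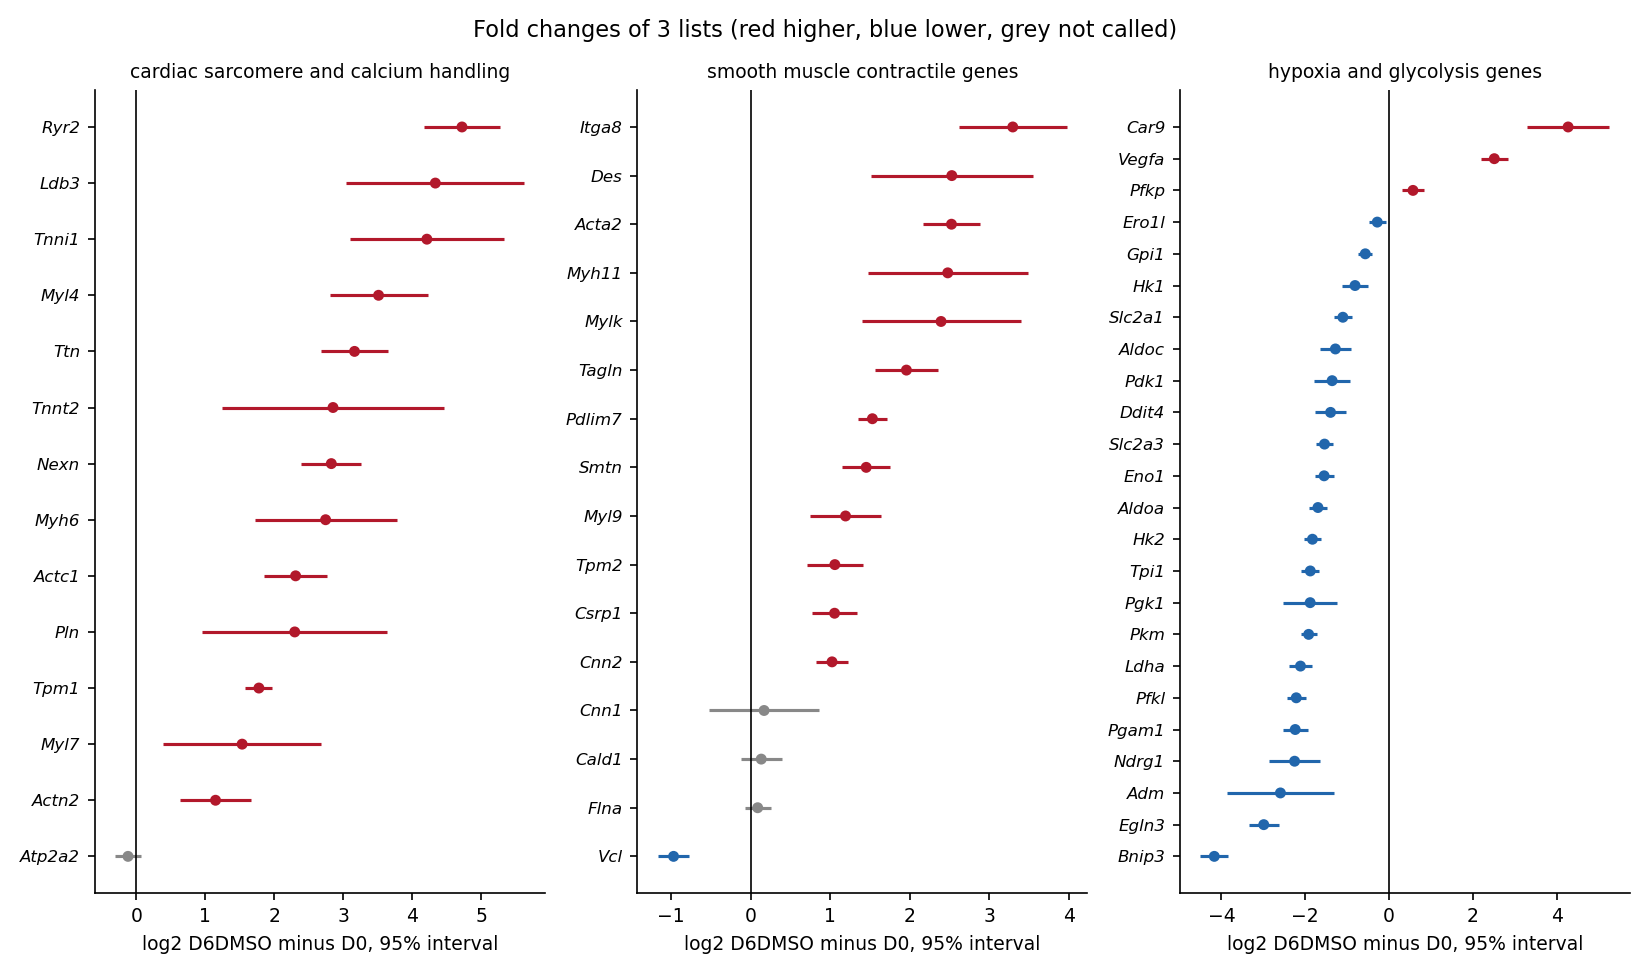
Log2 difference D6DMSO minus D0 with its 95% interval from limma for each measured gene of 3 lists, sorted by size; red genes were called higher, blue lower and grey not called. All sarcomere genes but Atp2a2 lie right of 0, 12 of 16 smooth muscle genes do so in red, and 21 of 24 hypoxia and glycolysis genes lie left of 0.

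The Hox genes, which set position along the body axis, moved furthest. All 14 measured anterior Hox genes (groups 1 to 5) and all 10 posterior ones were called higher in D6DMSO, and the libraries of the 2 groups did not overlap for any of them. The lists held 15 anterior and 24 posterior genes, and the others are not in the deposited table. Every measured one was under 1 CPM in D0, where a fall could hardly be called. The direction of these calls was thus largely fixed in advance. In each set 6 genes had 0 counts in the D0 group, so their fitted differences are no bounds. With those genes set to the bound from 3 counts over the group, the median log2 difference was 7.31 for the anterior and 6.60 for the posterior set. Hoxa5 was at 22.3, 17.5 and 22.01 CPM in D6DMSO, at least 183-fold higher than in D0, and Hoxa2 at 22.01, 19.1 and 20.00 CPM, at least 181-fold higher. Hoxb7 reached 17.3, 14.2 and 20.1 CPM (at least 153-fold higher) and Hoxc6 11.5, 12.1 and 17.3 CPM (at least 121-fold higher). Of those with counts in D0, Hoxb9 had 2 and a ratio of 1271 (95% interval 352 to 10500.0), Hoxb4 had 1 and a ratio of 1112 (95% interval 199 to 43940.0), and Hoxd3 had 2 and a ratio of 424 (95% interval 117 to 3504). Hoxb9 was at 89.4, 85.2 and 112 CPM in D6DMSO and Hoxb4 at 44.6, 33.1 and 47.7 CPM.

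All 24 Hox genes were already called higher in D3DMSO than in D0, with the same limit of their low D0 level. From day 3 to day 6, 12 anterior and 9 posterior genes rose further. Hoxb1, at the anterior end of its cluster and an early gene in embryos, was at 20.9, 50.9 and 37.3 CPM in D3DMSO and 17.3, 16.97 and 24.2 CPM in D6DMSO, and fell by 0.83 on the log2 scale between these days (limma adjusted p 0.0233). Hoxa2 stood at 9.39, 24.2 and 15.8 CPM at day 3 and was not called between day 3 and day 6 (log2 0.40). Hoxb9, near the other end of its cluster, was at 0.967, 6.57 and 4.49 CPM in D3DMSO and rose by a further 4.91 on the log2 scale. D3DMSO replicate 1 held the lowest value of all 3 genes. The antisense transcripts Hoxb5os and Hoxb3os were at 26.8, 24.1 and 33.96 CPM and 28.2, 25.6 and 28.9 CPM in D6DMSO and had 0 and 1 counts in D0. The library kit keeps strand, but whether counting used it is not given in the sources used here, so their reads and those of the Hox genes on the other strand cannot be told apart.

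Genes of retinoic acid synthesis, binding and response are known to act upstream of, or beside, Hox genes. No retinoic acid was added on this route. Of 18 measured genes 15 rose, Rxrg fell and the median log2 difference was 2.48. In D0, 4 of the 18 were under 1 CPM, where a fall could hardly be called. Nr2f1 and Nr2f2, the COUP-TF orphan receptors that are known to respond to retinoic acid, were close to 0 at day 0 and at day 3. Nr2f1 was covered by 3 counts over the D0 group and was at 0, 0 and 0.155 CPM in D3DMSO and at 58.8, 45.5 and 55.1 CPM in D6DMSO, which gives a ratio of 472 (95% interval 161 to 2288) to D0. Nr2f2 was at 0.205, 0 and 0.284 CPM, 0.276, 0.411 and 0.465 CPM and 53.4, 53.5 and 62.8 CPM (log2 8.23 ± 0.37 (SE), 7.60 without D0 replicate 2). Meis2, a homeobox partner of Hox proteins, rose in steps from 2.67, 2.36 and 2.93 CPM to 70.98, 110.4 and 109.8 CPM and 334, 284 and 331 CPM.

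Among members chosen after their values were seen, Aldh1a2, the main embryonic enzyme of retinoic acid synthesis, was at 0.410, 0.157 and 0.378 CPM in D0, 188, 245 and 208 CPM in D3DMSO and 32.8, 24.9 and 34.97 CPM in D6DMSO. Cyp26a1, which breaks retinoic acid down and is on the streak list as well, was at 3.49, 3.302 and 5.11 CPM, 83.5, 92.98 and 67.4 CPM and 17.8, 18.98 and 18.4 CPM. Both therefore peaked at day 3. Rarb, a receptor that is a direct retinoic acid target, was at 2.97, 1.89 and 2.74 CPM, 1.52, 1.85 and 1.39 CPM and 38.2, 42.9 and 37.9 CPM. Stra6, the retinol transporter, was at 1.13, 0.944 and 2.08 CPM, 1.52, 2.05 and 1.08 CPM and 18.3, 19.3 and 20.7 CPM. Rarb and Stra6 were high at day 6 alone. Rxrg, a retinoid X receptor, fell from 3.897, 3.93 and 2.65 CPM to 0.702, 0.294 and 0.656 CPM.

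Among 22 measured endothelial and blood genes (30 listed), 19 rose and 0 fell, with a median log2 difference of 3.48. In D0, 12 of the 22 were under 1 CPM, where a fall could hardly be called. The lack of falls was thus partly fixed in advance. Kdr, the VEGF receptor of mesoderm precursors and endothelium, was at 0.821, 0.472 and 1.42 CPM in D0, 31.5, 60.3 and 48.5 CPM in D3DMSO and 129, 114 and 129.6 CPM in D6DMSO (log2 7.12 ± 0.28 (SE), limma adjusted p 2.64e-12). Emcn, the endothelial surface protein endomucin, had 1 count in D0, none in D3DMSO and 9.38, 6.68 and 7.31 CPM in D6DMSO. Cdh5, the cadherin of endothelial junctions, had 3 counts in D0 and 8.38, 5.04 and 8.14 CPM in D6DMSO, a ratio of 63.6 (95% interval 21.6 to 309.6). Clec1b, a receptor of platelets and some myeloid cells that no list holds, was at 0 counts in all 6 D0 and D3DMSO libraries and at 22.2, 15.4 and 20.7 CPM in D6DMSO, at least 172-fold higher. The blood transcription factor Tal1 went from 1.13, 1.42 and 1.32 CPM to 17.2, 15.3 and 15.7 CPM, and Gata2 from 0.923, 1.42 and 0.378 CPM to 7.45, 8.11 and 8.27 CPM. Tek, Runx1 and Ikzf1 were not called (log2 0.52 ± 0.34 (SE), 0.41 ± 0.58 (SE) and -0.53 ± 0.30 (SE)). Tek was called higher with voom weights and when the 6 compared libraries were fitted on their own (limma adjusted p 0.00313 and 0.00212, up to 0.371 over the alternatives), and its D0 and D6DMSO libraries did not overlap. Ikzf1 was called lower under quantile normalization, with voom weights and with the 6 libraries alone. Tek also changed in between, with 10.6, 9.12 and 10.2 CPM in D0, 1.105, 0.205 and 0.775 CPM in D3DMSO and 15.6, 12.7 and 14.8 CPM in D6DMSO.

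Imprinted growth genes, which are expressed from a single parental copy and act on fetal and placental growth, rose in 16 of 23 measured cases (median log2 difference 1.35). Igf2, the fetal growth factor that shares control elements with H19, was at 24.6, 19.3 and 30.4 CPM in D0, 14.1, 21.1 and 16.4 CPM in D3DMSO and 518, 684 and 549 CPM in D6DMSO (log2 4.57 ± 0.17 (SE), limma adjusted p 8.89e-13). H19 and Igf2 thus both had their lowest mean at day 3. Zim1, a zinc finger gene beside Peg3, went from 0.513, 0.472 and 0.473 CPM through 3.45, 5.75 and 5.11 CPM to 99.01, 129.7 and 106 CPM (log2 7.67 ± 0.23 (SE)). Its neighbour Peg3, named after its values were seen, was at 472, 481 and 537 CPM and 2214, 2611 and 2258 CPM. Peg10, a placental gene of retrotransposon origin, was at 289, 303 and 418 CPM and 1848, 2353 and 2254 CPM. The fetal Notch-like protein gene Dlk1 rose from 1.44, 0.944 and 1.42 CPM to 18.9, 21.3 and 18.7 CPM.

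The direction was not shared by all imprinted genes. Ascl2, a helix-loop-helix factor of trophoblast, fell from 6.46, 6.45 and 7.66 CPM to 0.570, 0.630 and 0.613 CPM (log2 -3.46 ± 0.55 (SE)). Magel2, from the Prader-Willi cluster, fell from 50.3, 56.6 and 72.2 CPM to 15.3, 22.5 and 19.8 CPM, and Nnat, neuronatin, from 45.9, 42.6 and 35.6 CPM to 16.8, 15.5 and 17.6 CPM. Plagl1, Ndn, Impact and Tssc4 were not called. The files hold no allele information, so levels here are sums over both parental copies.

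More matrix and mesenchymal genes rose than fell, while most epithelial junction genes fell. Of 30 collagens and other matrix genes, 23 rose and 3 fell (median log2 difference 1.27). Fbn2, the fetal fibrillin, was at 21.6, 17.6 and 31.8 CPM in D0 and 282, 289.5 and 366 CPM in D6DMSO (log2 3.75 ± 0.26 (SE)). Col1a1, a chain of collagen I, was at 5.64, 2.99 and 9.27 CPM, 0.829, 1.03 and 1.39 CPM and 30.3, 42.9 and 29.5 CPM by day, and Nid1, a basement membrane linker, at 13.03, 7.55 and 14.7 CPM and 61.7, 65.6 and 79.7 CPM in D0 and D6DMSO. Timp1, a protease inhibitor, fell from 21.6, 21.2 and 17.96 CPM to 4.65, 5.29 and 5.295 CPM. Mmp2 and Nid2 also fell, Nid2 by 0.32 on the log2 scale with a limma adjusted p that ranged from 0.00188 to 0.179 over the alternatives. The matrix genes are long, with a median RefSeq gene span of 87.5 kb against 25.6 kb over 12596 protein-coding genes. Longer genes were higher at day 6 in general: the median log2 difference was -0.20 in the fifth of genes with the shortest span (median 4.75 kb, 29.0% called higher) and 0.40 in the fifth with the longest (142 kb, 51.9% called higher). The nuclear RNAs Malat1 and Rn7sk also rose (log2 2.39 ± 0.10 (SE) and 1.32 ± 0.26 (SE); Rn7sk was not called under quantile normalization). The part of these differences in any list's result was not tested. The Hox genes, with median spans of 3.1 and 4.42 kb, and the glycolysis genes, with 18.7 kb, are shorter.

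Of 24 mesenchymal transition and fibroblast genes, 16 rose (66.7%) and 7 fell (29.2%, against 34.4% of all genes). Pdgfra, a growth factor receptor of mesoderm, was at 2.56, 2.04 and 3.21 CPM in D0, 77.1, 144 and 123 CPM in D3DMSO and 103, 112 and 74.5 CPM in D6DMSO. Ankrd1, a muscle ankyrin-repeat protein induced by mechanical load, was at 4.51, 2.04 and 2.55 CPM, 0.138, 0.411 and 0 CPM and 47.7, 57.03 and 39.6 CPM by day. Tgfbi, a matrix adhesion protein, was at 0.615, 0.472 and 1.23 CPM, 0.414, 0 and 0 CPM and 15.4, 16.3 and 14.1 CPM. Both were lower at day 3 than at day 0 before they rose (log2 D3DMSO minus D0 -3.86 and -2.31). Each had D3DMSO values at or near 0 CPM, so the size of these differences depends on the added 0.5. Snai1, the repressor that starts epithelial-mesenchymal transition, was highest at day 3, at 17.5, 20.5 and 17.2 CPM, with 0.410, 0.472 and 0.284 CPM in D0 and 3.64, 3.99 and 3.41 CPM in D6DMSO. The largest falls were in Thy1, Dcn and Postn (log2 -2.71, -2.56 and -1.86). Vim, which encodes vimentin, was also called lower (log2 -0.30, limma adjusted p 0.00173). Its call was lost under quantile normalization.

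Not all epithelial genes moved together. Of 18 measured, 10 fell and 5 rose (median log2 difference -1.18). Epcam, the epithelial adhesion molecule that pluripotent cells also carry, fell from 165, 153 and 153 CPM to 16.5, 19.9 and 18.03 CPM (log2 -3.12 ± 0.17 (SE)). Spint1, a protease inhibitor of epithelia, fell from 31.5, 31.8 and 30.7 CPM to 5.22, 6.34 and 5.51 CPM, and Grhl2, a factor that keeps epithelial identity, from 14.9, 10.1 and 12.5 CPM to 3.07, 2.898 and 2.14 CPM. E-cadherin, Cdh1, was at 81.2, 68.7 and 93.6 CPM in D0, 92.5, 110.2 and 149 CPM in D3DMSO, where it was not called, and 18.3, 24.3 and 21.8 CPM in D6DMSO. The genes that rose were the keratins of simple epithelia and Esrp2 and Cdh3. Krt18 went from 31.1, 27.2 and 24.02 CPM to 206, 233 and 202 CPM, Krt8 from 18.97, 14.8 and 14.7 CPM to 56.6, 64.7 and 46.7 CPM, and Krt19 from 2.05, 4.09 and 2.74 CPM to 49.8, 58.4 and 55.01 CPM. These keratins are also on the parietal endoderm list, of which 11 of 15 measured genes rose.

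**Figure D4:**
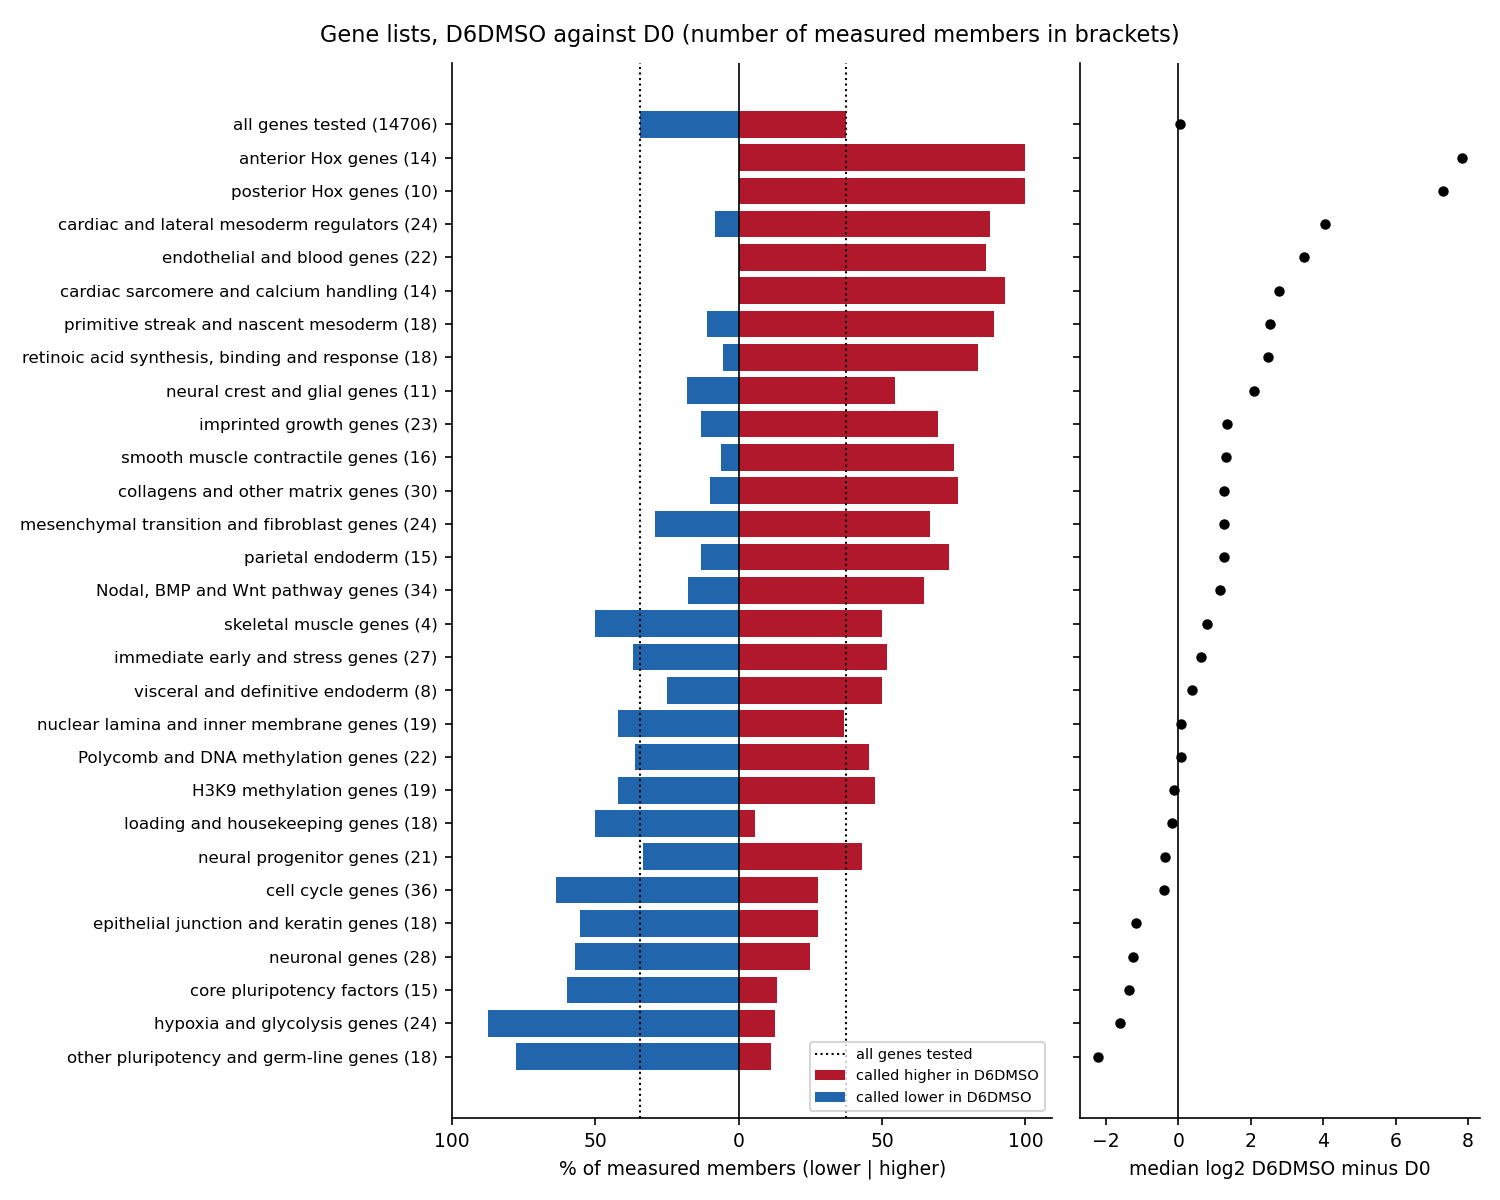
Left, the share of the measured members of each gene list called higher (red) or lower (blue) in D6DMSO than in D0 by limma, with dotted lines at the shares over all 14706 genes (37.4% higher, 34.4% lower); right, the median log2 difference of the list as fitted. Both Hox lists reach 100% higher, with every measured member under 1 CPM in D0, where a fall could hardly be called. Of the hypoxia and glycolysis genes, 87.5% were lower. For the Hox lists the fitted medians (7.82 and 7.31) include genes with 0 counts in D0 and are no bounds.

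RNA of the pluripotency network was reduced but not gone. Of 15 measured core factors, 9 fell (34.4% of all genes did), 2 rose and 4 were not called, with a median log2 difference of -1.37. Pou5f1 was at 1403, 1339 and 1210.3 CPM in the D0 libraries, 835, 369 and 461 CPM in D3DMSO and 40.2, 51.4 and 49.5 CPM in D6DMSO. The day 6 mean was 3.57% of the day 0 mean, and the log2 difference -4.81 ± 0.83 (SE) (limma adjusted p 6.87e-05, range over the alternatives 9.18e-13 to 0.000769). Nanog stood at 73.1, 84.6 and 72.4 CPM, 91.6, 43.3 and 69.4 CPM and 11.8, 13.1 and 11.2 CPM, so that 15.7% of the day 0 mean was left. It was not called between D0 and D3DMSO (log2 -0.23) and fell afterwards. Sox2, which neural and some endodermal cells also use, was at 253, 225 and 205 CPM, 77.5, 55.4 and 69.2 CPM and 68.3, 42.2 and 38.9 CPM, with 21.9% left at day 6. D6DMSO replicate 1 held more Sox2 than the other D6DMSO libraries.

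Further core factors are given by what was left at day 6. Foxd3, a repressor of the pluripotent and neural crest states, kept 1.17% of its day 0 mean (73.6, 63.1 and 56.1 CPM in D0, 1.01, 0.546 and 0.700 CPM in D6DMSO). Utf1, a chromatin factor of undifferentiated cells, kept 4.03% (101, 101 and 95.3 CPM in D0, 2.76, 4.79 and 4.42 CPM in D6DMSO), and Nr0b1, the orphan receptor Dax1, 4.74% (66.3, 64.3 and 63.3 CPM in D0, 2.499, 3.53 and 3.15 CPM in D6DMSO). These 3 factors thus kept under 5% of the day 0 mean, as did Pou5f1. A milder fall was seen for Klf2, a Krüppel-like factor of naive cells that kept 37.3% (4.72, 6.76 and 6.24 CPM in D0, 2.37, 2.23 and 2.01 CPM in D6DMSO). Sall4, a zinc finger factor that mesoderm and germ cells also use, kept 39.8% (336, 353 and 367 CPM in D0, 153, 149 and 192 CPM in D3DMSO and 122, 139.7 and 158 CPM in D6DMSO). D6DMSO minus D3DMSO was not called for it (log2 -0.23).

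The factors that did not fall are mostly low. Klf4 was at 10.8, 14.5 and 13.1 CPM and 8.02, 7.98 and 7.88 CPM, a log2 difference of -0.68 ± 0.36 (SE) that was not called although the libraries did not overlap (limma adjusted p 0.103, range over the alternatives 0.000609 to 0.229). Esrrb, an orphan receptor of naive cells, was at 1.44, 2.04 and 1.13 CPM and 0.702, 0.378 and 0.875 CPM, again not called (limma adjusted p 0.0609, range 0.00884 to 0.388 over the alternatives). Tfcp2l1 and Nr5a2 overlapped between the groups, at 2.67, 1.57 and 3.404 CPM and 3.81, 3.32 and 2.89 CPM for the first and 0.513, 0.157 and 0.0946 CPM and 0.307, 0.0840 and 0.131 CPM for the second. Tbx3, which is also a factor of heart and limb mesoderm, rose from 0.923, 0.944 and 0.473 CPM to 21.9, 28.6 and 26.8 CPM, and Klf5, also of epithelia and smooth muscle, from 1.33, 2.36 and 1.32 CPM to 4.74, 6.26 and 6.04 CPM.

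Of 18 other pluripotency and germ-line genes, 14 fell and 2 rose (median log2 difference -2.22). L1td1, an RNA-binding protein of retrotransposon origin, was at 379, 382 and 308 CPM and 9.91, 12.9 and 11.8 CPM (log2 -4.95 ± 0.89 (SE)). Tdgf1, the Nodal co-receptor Cripto, went from 231, 242 and 205 CPM to 10.3, 9.95 and 9.23 CPM and Gdf3, a TGF-beta family ligand, from 70.9, 66.5 and 64.3 CPM to 2.54, 3.65 and 3.41 CPM. Fgf4, a growth factor of the epiblast and streak, first rose to 33.3, 47.6 and 43.99 CPM at day 3 and was at 14.9, 11.01 and 10.1 CPM in D0 and 1.096, 1.13 and 0.831 CPM in D6DMSO. The microRNA-blocking protein gene Lin28a was at 876, 861 and 802 CPM and 353, 378 and 388 CPM, while its paralog Lin28b stood at 156, 153 and 167 CPM in D0, 101, 108 and 126 CPM in D3DMSO and 168, 153 and 165 CPM in D6DMSO and was not called (log2 0.03 ± 0.08 (SE), 95% interval -0.13 to 0.20). The receptor Kit, of germ cells and blood precursors, rose from 14.3, 14.2 and 20.7 CPM to 44.7, 50.98 and 47.9 CPM, and Ifitm1 from 3.69, 2.67 and 3.59 CPM to 13.8, 18.1 and 12.95 CPM.

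Most measured neuronal genes had at least 1 CPM in undifferentiated cells, with 7 under it, and more fell than rose by day 6. Of 28 measured, 16 fell and 7 rose (median log2 difference -1.24). Tubb3, the neuronal beta-tubulin, was at 117, 121 and 99.1 CPM in D0, 45.02, 36.3 and 39.04 CPM in D3DMSO and 6.31, 7.39 and 6.302 CPM in D6DMSO (log2 -4.07 ± 0.09 (SE), limma adjusted p 7.77e-15). Elavl3, a neuronal RNA-binding protein, fell from 21.9, 19.03 and 22.9 CPM to 0.965, 0.840 and 0.613 CPM, and Ina, a neuronal intermediate filament, from 16.5, 17.3 and 20.05 CPM to 0.833, 0.504 and 1.14 CPM. The member that rose most was Isl1, a LIM-homeobox factor of motor neurons that the second heart field uses too and that the mesoderm list also holds (0.308, 0.472 and 0.0946 CPM and 10.7, 11.7 and 9.63 CPM). Neural progenitor genes went both ways, 9 higher and 7 lower of 21. Zic5 and Zic2 fell (log2 -3.88 ± 0.24 (SE) and -3.78 ± 0.19 (SE)), and Pax3, a factor of neural tube and somites, rose from 0.205, 0.157 and 0.189 CPM to 12.1, 9.62 and 10.9 CPM. Of 11 neural crest and glial genes 6 rose, with Ednrb, Ets1 and Tfap2a furthest, and Foxd3 and Aldh1l1 fell.

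Genes of the Nodal, BMP and Wnt pathways rose more often than they fell, with Nodal itself among those that fell. Of 34 measured, 22 rose and 6 fell (median log2 difference 1.14). In D0, 8 of the 34 were under 1 CPM, where a fall could hardly be called. The ligand Nodal was at 43.4, 41.7 and 37.3 CPM in D0, 83.5, 54.8 and 61.7 CPM in D3DMSO and 7.19, 8.78 and 8.05 CPM in D6DMSO, and its inhibitor and target Lefty1 fell from 78.8, 79.9 and 69.1 CPM to 11.1, 18.1 and 15.3 CPM. Bmp4, a ligand that patterns ventral mesoderm, was at 3.08, 3.93 and 2.74 CPM, 3.59, 5.34 and 3.25 CPM and 58.1, 67.03 and 56.9 CPM (log2 4.21 ± 0.23 (SE)). Among Wnt genes the ligand Wnt5a was at 2.05, 1.57 and 1.99 CPM and 34.6, 41.03 and 39.7 CPM, and the feedback target Axin2 at 10.5, 11.8 and 11.1 CPM, 73.6, 98.9 and 111 CPM and 53.1, 53.3 and 58.4 CPM.

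The Wnt members with the largest differences were close to 0 in D0. Wnt2, a ligand of the heart field, had 1 count there and 4.47, 5.42 and 2.89 CPM in D6DMSO, a ratio of 114 (95% interval 20.3 to 4521). The secreted Wnt inhibitors Notum and Dkk1 were at 6.84, 7.06 and 7.702 CPM and 8.55, 8.86 and 7.83 CPM in D6DMSO, with 0.308, 0.315 and 0 CPM and 0, 0.629 and 0.378 CPM in D0. Their log2 differences were 5.26 ± 0.70 (SE) (4.26 without D0 replicate 3) and 5.08 ± 0.82 (SE) (3.94 without D0 replicate 1 and 5.83 without D0 replicate 2). For both genes the direction and the call held without each library in turn.

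Hypoxia and glycolysis genes fell almost as a block. Of 24 measured, 21 fell and 3 rose, with a median log2 difference of -1.62, and every member was called. Ldha, lactate dehydrogenase A, was at 845, 1066 and 876 CPM in D0, 687, 750.0 and 575 CPM in D3DMSO and 233, 222 and 188 CPM in D6DMSO (log2 -2.11 ± 0.13 (SE)). Pkm, the last enzyme of glycolysis, went from 2474, 2783 and 2309 CPM to 680.2, 649.6 and 667 CPM, and Hk2, an entry enzyme, from 381, 521 and 444 CPM to 114, 128 and 135 CPM. The fall of Hk2 was complete at day 3 (117, 117 and 116 CPM), whereas Pkm and Ldha fell mostly afterwards. Bnip3, a mitophagy gene induced in hypoxia, was at 149.7, 233 and 197 CPM in D0, 60.8, 48.03 and 40.3 CPM in D3DMSO and 10.2, 12.1 and 9.45 CPM in D6DMSO (log2 -4.17 ± 0.16 (SE), limma adjusted p 1.51e-12). Egln3, the oxygen-sensing prolyl hydroxylase PHD3, fell from 43.1, 67.5 and 60.4 CPM to 7.24, 8.02 and 5.995 CPM and Adm, the peptide hormone adrenomedullin, from 5.95, 10.7 and 10.5 CPM to 1.53, 1.64 and 1.18 CPM.

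The 3 members that rose were Car9, Vegfa and Pfkp. Car9, a membrane carbonic anhydrase, was at 0.513, 0.629 and 0.189 CPM in D0 and 7.63, 9.37 and 9.54 CPM in D6DMSO, and Vegfa, the vascular growth factor that binds Kdr, at 26.1, 33.97 and 33.9 CPM, 74.8, 50.7 and 64.9 CPM and 181, 193 and 161 CPM. Pfkp, a phosphofructokinase, rose by 0.57 on the log2 scale. Car9 and Vegfa are known hypoxia targets like Bnip3, so the list's members did not share 1 direction. Of the falls, the smallest was that of Ero1l, whose call was lost when the libraries were thinned to the smallest scaled library size and without D0 replicate 2, D0 replicate 3 or D6DMSO replicate 1 (limma adjusted p 0.0172, 0.000605 to 0.214 over the alternatives).

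Hypoxia-inducible factors are known to bind a short core, ACGTG. This core, on either strand (ACGTG or CACGT), was found in 12 of the 21 hypoxia and glycolysis genes with a RefSeq promoter, in 25% of measured genes with one and in 16.6% of all promoters in the table. It was also in 5 of 12 sarcomere genes and in 2 of 14 smooth muscle genes, lists that mostly rose. The hypoxia and glycolysis list was chosen for its known targets, so its share describes the list and not the change. Car9 and Vegfa, which rose, hold the core as Bnip3 and Ldha do. The promoters of Ldha (plus strand of chr7:46845554-46845803, 1 of 2 in RefSeq) and Bnip3 (minus strand of chr7:138909507-138909756) are shown as those of a glycolytic enzyme and of the hypoxia gene that fell furthest. Capitals mark the core and its overlapping matches on both strands. They begin at bases -145, -48 and -34 of Ldha and at base -108 of Bnip3.
Ldha: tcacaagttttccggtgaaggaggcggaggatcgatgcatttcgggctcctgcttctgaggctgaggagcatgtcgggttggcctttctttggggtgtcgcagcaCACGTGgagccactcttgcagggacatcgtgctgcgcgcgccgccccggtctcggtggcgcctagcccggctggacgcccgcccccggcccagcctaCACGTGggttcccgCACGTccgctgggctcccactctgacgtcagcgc
Bnip3: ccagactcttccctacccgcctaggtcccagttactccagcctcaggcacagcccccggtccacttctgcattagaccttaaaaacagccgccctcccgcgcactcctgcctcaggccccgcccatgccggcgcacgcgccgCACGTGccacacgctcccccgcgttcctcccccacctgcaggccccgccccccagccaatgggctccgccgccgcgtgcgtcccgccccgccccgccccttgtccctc

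Cell cycle genes moved in both directions, mostly by less than 2-fold. Of 36 measured, 23 fell and 10 rose, with a median log2 difference of -0.41. Among them 6 fell and 5 rose by at least 2-fold. Ccne1, the G1/S cyclin E1, fell from 159, 137 and 134 CPM to 24.1, 26.2 and 23.02 CPM, Mycn from 241, 221 and 214 CPM to 89.1, 106 and 94.2 CPM, and Mcm5, of the replicative helicase, from 544, 535 and 495 CPM to 223, 233 and 248 CPM. Ccnd2, the growth-factor-dependent cyclin D2, rose from 73.5, 69.98 and 93.99 CPM through 168, 168 and 245 CPM to 507, 704 and 703 CPM (log2 3.01 ± 0.15 (SE), limma adjusted p 3.66e-11), and the kinase inhibitor Cdkn1a (p21) from 1.13, 0.786 and 1.32 CPM to 6.49, 10.1 and 10.2 CPM. Of 18 housekeeping genes, B2m rose, 9 fell and 8 were not called. The metabolic gene Hprt fell by 2.10 and the transferrin receptor gene Tfrc by 2.24 on the log2 scale.

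Immediate early and stress genes moved in both directions, 14 up and 10 down of 27 measured. Those that rose most were Trib3, Gadd45a and Chac1, of which Trib3 and Chac1 are known targets of the amino acid and endoplasmic reticulum stress response. Trib3, a pseudokinase target of Atf4, was at 6.26, 4.72 and 7.09 CPM in D0, 76.9, 44.1 and 51.6 CPM in D3DMSO and 102, 90.04 and 107 CPM in D6DMSO, and Chac1, a glutathione-degrading enzyme, was at 9.13, 9.75 and 8.32 CPM, 112, 80.05 and 79.3 CPM and 104, 115 and 102 CPM. Gadd45a, a growth arrest gene, rose from 3.897, 3.77 and 5.01 CPM to 54.6, 49.1 and 52.8 CPM. Ier3, Egr2 and Fosb fell furthest, and Egr2 lost its call when the libraries were thinned and without D0 replicate 2, D0 replicate 3 or D6DMSO replicate 3.

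Chromatin and nuclear envelope genes, which the H3K9me2 arm of the series concerns, gave counts near the background. Of 19 lamina and inner membrane genes 7 rose and 8 fell, of 19 H3K9 methylation genes 9 and 8, and of 22 Polycomb and DNA methylation genes 10 and 8. Lmna, which encodes the A-type lamins, was at 14.7, 8.49 and 13.2 CPM in D0 and 18.2, 18.1 and 18.8 CPM in D6DMSO (log2 0.63 ± 0.22 (SE)). Its limma adjusted p was 0.0158 and rose above 0.05 when the libraries were thinned or D0 replicate 2, the lowest, was left out (range 0.00186 to 0.11). Lmnb1, a B-type lamin, fell from 260.4, 250.0 and 255 CPM to 190.3, 198 and 207 CPM (log2 -0.36 ± 0.09 (SE)). Sun2, which links lamina and cytoskeleton, rose from 9.74, 9.91 and 8.89 CPM to 37.6, 39.01 and 41.1 CPM.

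The largest change among these 3 lists was in Dnmt3b, a de novo DNA methyltransferase of the epiblast, with 1288, 1271 and 1261 CPM in D0, 293, 182 and 252 CPM in D3DMSO and 44.1, 51.2 and 46.9 CPM in D6DMSO (log2 -4.75 ± 0.14 (SE), limma adjusted p 6.3e-14). Its relative Dnmt3a fell from 376, 404 and 391 CPM to 139, 142 and 153 CPM, while the maintenance enzyme Dnmt1 was not called (log2 0.02 ± 0.06 (SE), 95% interval -0.11 to 0.15). Among chromobox subunits of Polycomb complexes, Cbx7, the one of pluripotent cells, fell from 74.6, 78.9 and 74.5 CPM to 26.5, 28.6 and 27.2 CPM, while Cbx8 rose from 3.08, 2.52 and 2.08 CPM to 10.2, 8.48 and 9.32 CPM. Trim28, a co-repressor that recruits H3K9 methyltransferases, fell from 1229, 1168 and 1128 CPM to 496, 486 and 424 CPM, Kdm1a from 330.2, 327 and 322 CPM to 213, 209.8 and 186 CPM, and the demethylase Kdm7a rose from 35.8, 50.2 and 52.00 CPM to 172, 170.0 and 168 CPM.

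Primitive streak genes peaked at day 3. All 18 measured were called higher in D3DMSO than in D0 (28.3% of all genes were) and all 18 lower in D6DMSO than in D3DMSO (28.1%), and at day 6 16 were still above D0 and 2 below it. In D0, 7 of the 18 were under 1 CPM, where a fall from D0 could hardly be called. The calls at both steps share the D3DMSO libraries. T itself was at 3.08, 3.46 and 2.46 CPM in D0, 854, 891 and 877 CPM in D3DMSO and 25.6, 25.2 and 25.6 CPM in D6DMSO. The day 6 level was thus far under the peak and still above every D0 library (log2 3.07 ± 0.46 (SE) to D0, limma adjusted p 1.48e-05). Cdx2, a caudal homeobox factor of the posterior embryo, had 2 counts over the D0 group, reached 79.1, 117 and 90.2 CPM in D3DMSO and was at 10.3, 10.04 and 10.9 CPM in D6DMSO, a ratio to D0 of 139 (95% interval 38.3 to 1149). Sp5, a Wnt target, was at 0.103, 0.472 and 0.0946 CPM, 49.6, 44.95 and 51.3 CPM and 5.35, 4.66 and 5.34 CPM (log2 to D0 4.49 ± 0.42 (SE), 5.12 without D0 replicate 2). The homeobox gene Nkx1-2 was at 0.718, 0.629 and 0.378 CPM, 21.3, 24.02 and 31.1 CPM and 7.76, 9.32 and 9.15 CPM.

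Eomes and Gsc ended below their starting level. Eomes, a T-box factor of streak and endoderm, was at 29.5, 27.5 and 29.03 CPM in D0, 94.04, 96.1 and 92.5 CPM in D3DMSO and 6.23, 9.49 and 8.88 CPM in D6DMSO (log2 to D0 -1.83 ± 0.47 (SE)). Gsc, goosecoid of the anterior streak, was at 2.67, 3.62 and 2.36 CPM, 18.6, 17.9 and 12.5 CPM and 0.219, 0.126 and 0.306 CPM (log2 -3.67 ± 0.43 (SE)). Tbx6, of paraxial mesoderm, reached 56.2, 130.3 and 90.6 CPM at day 3 and was at 3.903, 4.03 and 3.94 CPM at day 6 and 0.615, 0.786 and 0.756 CPM at day 0. Its day 6 call was lost when the libraries were thinned (limma adjusted p 0.115 there, range 2.59e-06 to 0.115).

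**Figure D5:**
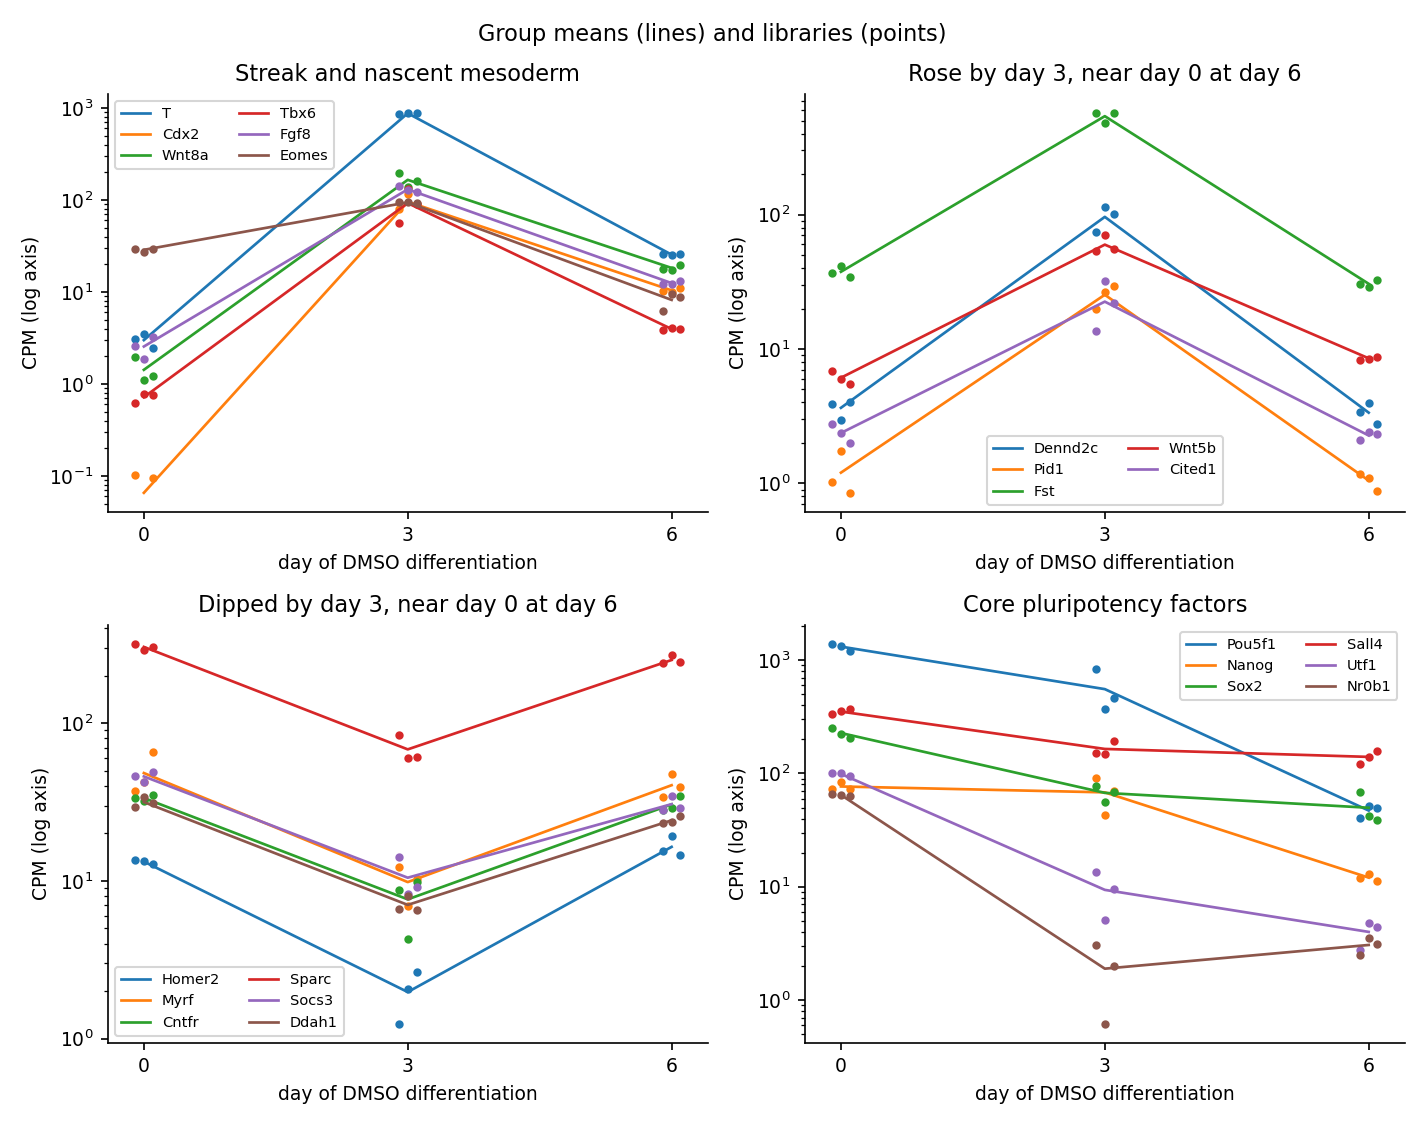
CPM (log axis) against the day of the DMSO route, as group means (lines) and libraries (points), for streak genes, for the named genes of each returning set and for 6 core pluripotency factors. T rises from a mean of 2.998 to 874 and falls to 25.4 CPM, Fst returns from a mean of 539.7 to 30.5 CPM, Sparc recovers from 68.2 to 251 CPM and Pou5f1 falls at both steps; 1 D0 library of Cdx2 at 0 has no point on the log axis.

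Some genes came back to the day 0 level. A gene was counted as returned where it was called in opposite directions at the steps D0 to D3DMSO and D3DMSO to D6DMSO and the 95% interval of its D6DMSO minus D0 difference lay between -1 and 1 on the log2 scale. This interval bounds the difference and does not show that it is 0. Both steps share the D3DMSO libraries, so their calls are not independent. A deviation of these libraries alone would shift both steps, in opposite directions. At the second step the depth and the ribosomal and mitochondrial shares of the libraries changed too, and their part was not tested. By this rule, with at least 10 CPM in D3DMSO or, for dips, in D0, 760 genes rose and returned and 720 dipped and returned. When counts were thinned, 375 and 451 genes met it. The genes of each set named here were chosen for their day 3 difference, so their courses are a description. Fst, the activin-binding protein follistatin, was at 36.9, 41.4 and 34.3 CPM, 574, 478 and 566 CPM and 30.3, 28.9 and 32.4 CPM by day. Dennd2c, a regulator of Rab proteins, was at 3.897, 2.99 and 4.07 CPM, 74.4, 113 and 101 CPM and 3.38, 3.95 and 2.76 CPM. Cited1, a transcriptional co-activator, was at 2.77, 2.36 and 1.99 CPM, 13.5, 31.8 and 22.2 CPM and 2.105, 2.39 and 2.32 CPM. For these 3 genes every D0 and D6DMSO library lay under every D3DMSO library. Pid1 was at 1.03, 1.73 and 0.851 CPM, 19.9, 26.5 and 29.6 CPM and 1.18, 1.09 and 0.875 CPM.

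Return within the interval can still leave a called difference. Wnt5b, a Wnt ligand, was at 6.87, 5.98 and 5.48 CPM, 53.2, 70.6 and 55.5 CPM and 8.33, 8.48 and 8.75 CPM, and its limma adjusted p of 0.0431 for day 6 lost the call under 9 of 17 alternatives (range 0.00717 to 0.505). Without a single library it was lost for D0 replicates 2 and 3 and for each D6DMSO replicate.

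Of the genes that dipped, Sparc, a matrix glycoprotein, was at 319, 291 and 301 CPM, 83.96, 59.9 and 60.6 CPM and 240.4, 269 and 244 CPM. Its day 6 difference of -0.28 ± 0.11 (SE) was called at a limma adjusted p of 0.0292, which rose above 0.05 without D0 replicate 1 or 3 or D6DMSO replicate 1 or 3 and under quantile normalization or without limma's trend (range 0.00289 to 0.397). Homer2, a scaffold protein, was at 13.5, 13.4 and 12.9 CPM, 1.24, 2.05 and 2.63 CPM and 15.5, 19.3 and 14.5 CPM. The signalling inhibitor Socs3 was at 46.5, 42.6 and 48.7 CPM, 14.1, 8.21 and 9.14 CPM and 28.2, 34.7 and 28.97 CPM, and thus came back part of the way (log2 to D0 -0.59 ± 0.19 (SE), limma adjusted p 0.0124). Cntfr, the receptor of ciliary neurotrophic factor, was at 33.4, 32.1 and 35.1 CPM, 8.700, 4.31 and 9.91 CPM and 28.2, 29.1 and 34.4 CPM. Myrf, a membrane-bound transcription factor, was at 36.9, 42.6 and 65.2 CPM, 12.3, 6.98 and 10.2 CPM and 34.2, 47.6 and 39.4 CPM. Ddah1, an enzyme of nitric oxide control, was at 29.5, 34.1 and 31.1 CPM, 6.63, 8.01 and 6.51 CPM and 23.4, 23.6 and 25.6 CPM. It was still called lower at day 6 than in D0 (log2 -0.38, limma adjusted p 0.00367), a call lost only with thinning.

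The genes that fell furthest among those at 10 CPM or more in D0, list members included, were Lars2, Foxd3, Calcr, Slc35d3, Cbr3, Mcf2, Htr7, Eras, Tnnt1 and Nell2. Calcr, the calcitonin receptor, was at 77.4, 83.03 and 83.8 CPM in D0 and 0.965, 1.01 and 0.875 CPM in D6DMSO. Slc35d3, a nucleotide sugar transporter, was at 58.7, 61.2 and 56.2 CPM and 1.05, 0.924 and 1.05 CPM, and Eras, a Ras protein of embryonic stem cells, at 29.03, 28.1 and 22.6 CPM and 0.614, 0.966 and 0.613 CPM. For Calcr the fall was nearly complete at day 3 (2.76, 1.85 and 2.32 CPM), while Cbr3, a carbonyl reductase, fell mostly afterwards (16.5, 14.3 and 13.7 CPM, 6.904, 5.54 and 6.196 CPM and 0.263, 0.336 and 0.481 CPM). Tnnt1, the slow skeletal troponin T, went against the cardiac genes, with 48.5, 40.1 and 35.9 CPM in D0 and 1.36, 1.05 and 1.01 CPM in D6DMSO. Mcf2, Htr7 and Nell2 fell by 5.29, 5.21 and 5.04 on the log2 scale. Lars2 is one of the 4 genes that collect ribosomal RNA reads, and its fall of 8.49 moved with their share of the libraries, and the part of that share in it was not tested.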

How the data were processed

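Total RNA of P19 cells was sequenced after ribosomal RNA depletion with a stranded kit, as 75 bp single-end reads, per the labels' protocols. The submitters' processing notes name the build mm9 and STAR 2.6.0c, featureCounts, limma, edgeR, Bowtie2 2.2.9, Trimmomatic 0.32, FastQC 0.11.2 and SAMtools 0.1.19, without their roles. The deposited values are log2 values of a gene count plus 0.5, multiplied by 1 constant per library; all values give back whole counts within 0.05, and the lowest is 1. The 18 chromatin immunoprecipitation samples were not analysed here.

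CPM was computed as the recovered count over the library size of the deposited scale, with its geometric mean set to the non-mitochondrial counts. The main test was limma 3.58.1 (R 4.3.3) with a trend on the deposited log2 values of all 15 RNA libraries in 5 groups (10 residual degrees of freedom), with Benjamini-Hochberg adjustment over 14717 genes and no filter. The difference of a gene near 0 counts depends on the added 0.5, so such genes are given by counts. Count intervals and floors (3 counts over the D0 group) cover counting error only. Of the gene IDs, 14228 matched a symbol and 489 did not. Tables and figures used Python 3.11.15, pandas 2.3.3, numpy 2.4.6, scipy 1.17.1 and matplotlib 3.10.9. On simulated counts for this comparison over 14717 genes, with 50 genes changed per fold size, the test recovered 28% of 1.5-fold, 82% of 2-fold and 100% of 4-fold and of 8-fold changes, with 2 false calls. Every simulated gene had the same dispersion, and unchanged genes had the same mean level in all groups. Differences in ribosomal share were not simulated. The recovery and false calls hold for these settings and may differ in the real libraries, where most genes were called.

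Genes were named as a panel (H19, Actc1, Gata6, Acta2, Pou5f1, Nanog, Sox2, T, Gata4, Lmna and Lmnb1), as the 10 that rose and the 10 that fell furthest at 10 CPM or more without overlap of libraries (predicted, unnamed and small RNA genes left out), as up to 3 called members at either end of each list at 1 CPM or more, as the 6 of each returning set, and as the core pluripotency factors. A few genes that this rule selects are not reported here. Other genes named, and the promoters printed, were chosen after their values were seen. Members and the 28 lists were chosen with earlier results of these data known. The alternatives were quantile normalization, median-of-ratios scaling, a filter of 5 CPM in 3 libraries, a fit without mitochondrial genes, limma without a trend, voom weights, fits of 6 or 9 libraries, a replicate block, an added count of 2 in proportion to library size, thinning of the counts to the smallest scaled library size (which does not equalize ribosomal or other shares), and leaving out each replicate.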

Additional observations from a re-analysis of the deposited data

Results flagged for a closer look

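Genes of the mitochondrial genome lie outside the comparison, and their share of the counts stood apart from the control level. It was 49.8% in D6DMSO replicate 1, 51.8% in replicate 2 and 55.8% in replicate 3, against 0% in the 3 D0 and the 3 D3DMSO libraries. What set this share was not tested, and none of the levels above includes these genes.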

How the results depend on the processing

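Of 230 genes followed over 17 alternatives, 209 were called, and 194 of these kept their call and direction under every alternative. The other 15 lost the call under at least 1: Lmna, Wnt5b, Sparc, Ddah1, Tcf15, Nid2, Rbp4, Myh3, Cdkn2c, Egr2, Vim, Ero1l, Rn7sk, Tbx6 and Col1a2. Of 640 counts, 638 stayed within 1.5 times. The exceptions came with thinning, which leaves fewer counts: 375 genes rose and returned, and 451 dipped and returned. Calls were also gained, in 24 cases. With the 6 libraries alone and with voom weights Klf4, Esrrb, Tbx1, Ikzf1 and Fst became lower and Tek and Homer2 higher; with the 9 libraries Klf4 and Fst did so as well. Under quantile normalization Esrrb, Nr5a2, Tbx1, Ikzf1 and Pid1 became lower (limma adjusted p 0.00884, 0.0222, 0.0311, 0.0177 and 0.0133) and Flna and Dnmt1 higher (0.0326 and 0.0125), and with thinning Tbx1 became lower. Direction turned in 11 cases, all of genes that were not called in the main analysis. With thinning the log2 difference was 0.39 for Dennd2c, 0.14 for Cited1, 0.25 for Nr5a2, -0.10 for Lin28b and 0.012 for Ikzf1. Without 1 library it ranged from -0.19 (D0 replicate 3) to 0.042 (D0 replicate 1) for Cited1, from -0.39 (D0 replicate 3) to 0.11 (D0 replicate 2) for Pid1, from -0.40 (D0 replicate 1) to 0.012 (D0 replicate 3) for Myrf, and from -0.020 (D6DMSO replicate 3) to 0.053 (D6DMSO replicate 1) for Dnmt1. It was 0.040 for Atp2a2 under quantile normalization and -0.0039 for Dnmt1 under median-of-ratios scaling. For all of these the cause was not tested. The number of called genes was 8535 with thinning, 11318 with voom weights, 11196 with the 6 libraries alone and 9877 to 10141 without 1 library. The unfiltered alternative is the main analysis itself. Same-numbered D0 and D6DMSO libraries did not deviate together (r = 0.042, -0.048 and 0.024 over genes). These values cannot show whether such libraries share a culture or passage, which the series' text does not name. The main fit used no pairing. With the replicate number as a block, 10708 genes were called, 5588 higher and 5120 lower. Without D0 replicate 3 the difference of Meox1 was 8.78 (9.57 with it) and that of Hoxd3 8.97 (8.34 with it), and without D0 replicate 2 that of Wnt2 was 6.39 (5.64 with it). Depth limits genes near 0 counts in D0, such as Hoxb5os (8.93, and 6.64 with thinning).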
